A study of Mus musculus with 2 samples.

Results

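The skeletal muscle genes examined here are 37 genes of the sarcomere, of calcium handling and of muscle fuel use, and were chosen by gene symbol. They were chosen with earlier results of these data known, so their standing among all genes is a description only. A probe that named 1 gene was on the array for 36 of the 37, and all 36 had a value at both ages, out of 18855 genes with a probe. Smpx, which encodes a small muscle protein, had no such probe. The study compared dorsal skin of Mpzl3 -/- pups, labelled Mpzl3 null, with that of their +/+ littermates, labelled wild type. Skin was taken at 1 day (P1) and at 9 days (P9) of age, with no other allele or agent in the labels. Each age had 1 array with a pair of dyes, Cy5 for the null RNA and Cy3 for the wild-type RNA. The labels do not say whether RNA of several pups was pooled.

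Each value is the deposited log2 ratio of the null to the wild-type channel, where base 2 was inferred from the values. A positive value means a higher signal in the null channel. With 1 array per age there was no replicate check and no test, and dye could not be told apart from genotype. The SD between probes of 1 gene, pooled over all genes, was 0.36 at each age. It covers probes within an array and not animals. A gene is called past 2-fold where the mean over its probes is at least 1 in size and its probes share 1 sign.

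Skeletal muscle shortens when myosin of the thick filament pulls on actin of the thin filament. Calcium from the sarcoplasmic reticulum switches the filaments on through troponin, and the pump encoded by Atp2a1 takes it up again. Fast and slow fibres use different isoforms of these proteins, and embryonic and perinatal myosins precede the adult ones. In mouse dorsal skin the striated muscle is the panniculus carnosus, a thin sheet under the dermis.

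At P1 the muscle genes were higher in the null channel almost throughout. The median was 0.73 over 36 genes, against 0.06 over all genes with a value, and 34 of the 36 lay above 0, against 55.8% of all genes. Past 2-fold were 7 higher and 0 lower, where 1.72% of all genes were called higher and 1.17% lower. The 7 were Myh2, Actn3, Myh7, Acta1, Ryr1, Myog and Pygm. Of these, Actn3, Myh2 and Myh7 were also past 2-fold after both arrays had been centred and brought to an equal spread. A value from 1 probe stood behind 20 of the 36 genes. Above the 90th percentile of all genes lay 23 of the 36, against 9.98% of all genes. In RNA from whole skin, more muscle cells and more RNA per muscle cell cannot be told apart. Neither was tested, and the ratios do not show that either was present.

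At P9 the same genes were closer to 0. The median was 0.25 against 0.02 for all genes, and 33 of 36 lay above 0, against 53.4% of all genes. Only Myog was past 2-fold, and 0 were lower, where 2.24% of all genes were called higher and 0.465% lower. The 90th percentile was exceeded by 9 of the 36, against 10.0% of all genes. Channels of the P9 array also differed in sex-linked transcripts. Xist, the transcript of the inactive X, had a ratio of 3.67 ± 1.05 (SD, 4 probes), and the Y-linked gene Eif2s3y was at −3.98. The Y-linked genes Kdm5d and Uty were at −1.765 (1 probe) and −1.99 ± 1.46 (SD, 4 probes) at P9. At P1 Xist was at −1.03 ± 0.77 (SD, 4 probes) and Uty at 0.33 ± 0.57 (SD, 2 probes), and Eif2s3y and Kdm5d had no value. The pups of the 2 P9 channels may thus differ in sex. With 1 array, sex could not be told apart from genotype at P9. The part of this sex-linked difference in the muscle values was not tested. Mpzl3 itself, on 1 probe, was at −0.21 at P1 and 0.20 at P9. Where that probe lies relative to the deletion is not known here, and its value therefore does not check the labels.

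From P1 to P9 the ratio was lower for 32 of the 36 genes, against 51.9% of all genes with both values. Xist went from −1.03 to 3.67 between these arrays, so age could not be told apart from the sex-linked difference. The median difference of P9 minus P1 was −0.39, against −0.01 for all genes, and −0.24 after the arrays had been centred and brought to an equal spread. Single differences ran from −1.20 for Myh2 to 0.31 for Mylpf. The 4 genes with a higher ratio at P9 were Mylpf, Myoz2, Ttn and Neb. Of these, Ttn was measured by partly different probes at the ages, and over its 5 probes with both values its difference was −0.03. Neb had 4 probes with a value at P1 and 6 at P9, and over the 4 with both values its difference was 0.20, against 0.12 over all its probes. Only Myog was past 2-fold at both ages, a pattern held by 0.859% of all genes with both values.

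**Figure D1:**
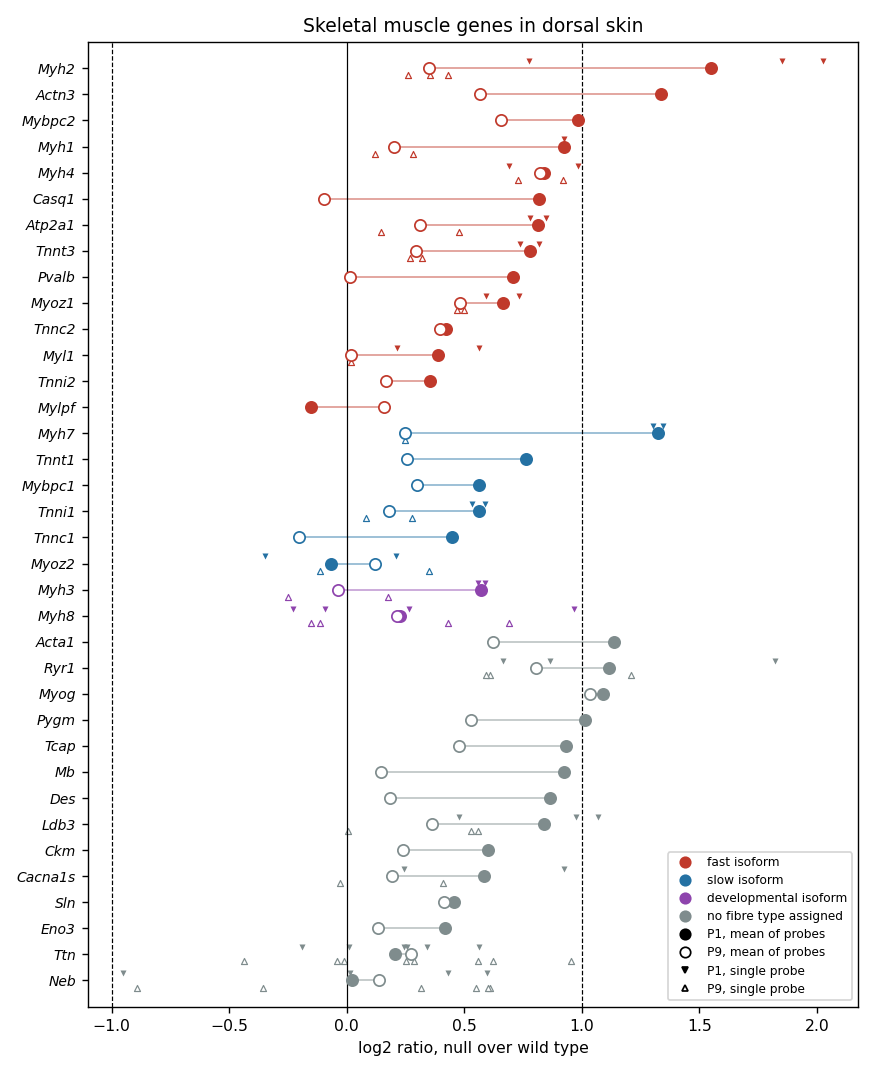
Log2 ratio of null over wild type for the 36 measured muscle genes, with filled circles for P1, open circles for P9, triangles for the single probes of genes with at least 2 probes, and dashed lines at 2-fold. Filled circles lie to the right of the open ones for 32 of the 36 genes, and Myh4, Myog and Sln have nearly equal values at both ages.

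Among the 10 thick filament genes the median was 0.70 at P1 and 0.23 at P9. Myh2, the fast myosin heavy chain of type IIa fibres, was the highest muscle gene at P1. Its 3 probes read 2.03, 1.85 and 0.78 at P1 and 0.36, 0.43 and 0.26 at P9. Its mean was 1.55 ± 0.68 (SD, 3 probes), 2.93-fold, at the 99.8 percentile of all genes, and 0.35 ± 0.09 (SD, 3 probes) at P9. The probes of the ages did not overlap, although 1 probe at P1 lay well below the other pair. Myh7, the slow myosin heavy chain, had P1 probes at 1.34 and 1.30 and 1 probe with a P9 value, at 0.25. Its P1 mean of 1.32 was 2.50-fold, and its difference of −1.07 was, after that of Myh2, the next in size among the 36.

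Of the other adult fast myosins, Myh1 had a lower ratio at P9, as Myh2 did, and Myh4 did not. Myh1, of type IIx fibres, was at 0.92 on 1 probe at P1 and at 0.20 ± 0.11 (SD, 2 probes) at P9. Myh4, of type IIb fibres, was at 0.84 ± 0.21 at P1 and 0.82 ± 0.14 at P9 (SD, 2 probes each). Myh4 was thus the one fast myosin with nearly the same ratio at both ages, and at P9 it ranked above all measured members but Myog. The developmental myosins had lower ratios at P1 than these adult fast myosins. Myh3, the embryonic heavy chain, was at 0.57 ± 0.02 at P1 and −0.04 ± 0.30 at P9 (SD, 2 probes each). Myh8, the perinatal heavy chain, had 4 probes that ran from −0.23 to 0.97 at P1 and from −0.15 to 0.69 at P9, with means of 0.23 and 0.21. The probes of Myh8 thus disagreed in sign at both ages. In the RefSeq gene table Myh3, Myh2, Myh1, Myh4 and Myh8 follow one another in this order on 1 chromosome. Their sequences are alike, so that probes may cross-react with a neighbour and single values in the cluster are uncertain.

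Light chains, which stiffen and regulate the myosin neck, had the smallest ratios among the fast isoforms of the thick filament. Mylpf, the fast regulatory light chain, was at −0.15 at P1 and 0.16 at P9 on 1 probe, both within the spread between probes. It was 1 of 2 members below 0 at P1. Myl1, the fast essential light chain, had P1 probes at 0.56 and 0.21 and 1 probe at P9, at 0.02. Myosin-binding protein C, which tethers myosin heads to the filament, was higher in its fast form. Mybpc2, the fast form, was at 0.98 at P1 and 0.66 at P9, and Mybpc1, the slow form, at 0.56 and 0.30, on 1 probe each.

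Among the 8 thin filament genes the median was 0.50 at P1 and 0.22 at P9. Acta1, the actin of skeletal muscle, was at 1.14 at P1, 2.20-fold, and at 0.62 at P9, on 1 probe. Acta1 was the only thin filament gene past 2-fold at P1. Troponin C binds calcium, troponin I inhibits and troponin T anchors the complex to tropomyosin. Fast troponin T, Tnnt3, was at 0.78 ± 0.06 at P1 and 0.29 ± 0.04 at P9 (SD, 2 probes each). Its slow counterpart Tnnt1 was at 0.76 and 0.25 on 1 probe, so the troponin T pair differed by 0.01 at P1 and 0.04 at P9. Fast and slow troponin I were also close, with Tnni2 at 0.35 and 0.17 and Tnni1 at 0.56 and 0.18. The troponin C pair was alike at P1 only. Tnnc2, the fast form, was at 0.42 and 0.40, and Tnnc1, the slow form, at 0.45 and −0.20, a gap of 0.60 at P9 between single probes. Tnnc1 was the lowest member at P9. Neb, which encodes nebulin along the thin filament, was at 0.02 ± 0.69 (SD, 4 probes) at P1 and 0.14 ± 0.62 (SD, 6 probes) at P9. Its probes disagreed in sign at both ages.

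Promoters are shown for 5 of these genes, the skeletal actin past 2-fold at P1, 3 neighbouring myosins of which Myh4 stood apart at P9, and the light chain that was below 0 at P1. Each is the 250 bases before the annotated start, 5′ to 3′ on the gene's strand, from RefSeq on GRCm38.p6. Capitals mark matches to 4 motifs of muscle promoters, read on both strands. These are the E-box CAGCTG, bound by myogenic factors such as those encoded by Myog and Myod1, the MCAT element CATTCC, the MEF2 site and the CArG box of serum response factor.
Acta1, chr8:123894776-123895025, minus strand: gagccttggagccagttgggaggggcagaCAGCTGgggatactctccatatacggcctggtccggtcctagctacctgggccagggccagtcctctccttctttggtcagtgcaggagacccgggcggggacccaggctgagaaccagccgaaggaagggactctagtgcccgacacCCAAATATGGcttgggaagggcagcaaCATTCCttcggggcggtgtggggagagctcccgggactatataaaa
Myh1, chr11:67199852-67200101, plus strand: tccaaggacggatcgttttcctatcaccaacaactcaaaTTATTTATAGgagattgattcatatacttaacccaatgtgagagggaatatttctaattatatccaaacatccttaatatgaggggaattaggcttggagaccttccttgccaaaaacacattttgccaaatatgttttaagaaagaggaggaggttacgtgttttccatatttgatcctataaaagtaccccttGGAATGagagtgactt
Myh4, chr11:67237562-67237811, plus strand: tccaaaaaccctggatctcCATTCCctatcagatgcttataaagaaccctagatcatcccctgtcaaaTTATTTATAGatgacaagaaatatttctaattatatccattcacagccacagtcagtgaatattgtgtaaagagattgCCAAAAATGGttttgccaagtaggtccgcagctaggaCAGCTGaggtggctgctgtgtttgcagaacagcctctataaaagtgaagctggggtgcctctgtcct
Myh8, chr11:67276874-67277123, plus strand: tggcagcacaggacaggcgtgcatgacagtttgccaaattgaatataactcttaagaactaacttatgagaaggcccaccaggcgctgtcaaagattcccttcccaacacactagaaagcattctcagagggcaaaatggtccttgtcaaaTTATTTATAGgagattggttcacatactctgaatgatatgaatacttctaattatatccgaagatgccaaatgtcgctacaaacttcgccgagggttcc
Mylpf, chr7:127211358-127211607, plus strand: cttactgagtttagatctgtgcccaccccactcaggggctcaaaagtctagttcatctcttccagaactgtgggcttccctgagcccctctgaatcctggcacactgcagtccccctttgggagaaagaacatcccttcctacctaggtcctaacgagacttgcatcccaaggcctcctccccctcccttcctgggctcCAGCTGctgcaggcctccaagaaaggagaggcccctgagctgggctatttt

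The MEF2 match had the same 10 letters in Myh1, Myh4 and Myh8, beginning 211, 182 and 99 bases before the start. P9 ratios of these 3 genes were 0.20, 0.82 and 0.21. Myh4 held a match to each of the 4 motifs, and Acta1 to the E-box, the CArG box and the MCAT element. Mylpf held an E-box beginning 51 bases before the start. Windows were found for 30 of the 37 members, 36 windows in all, since some genes have several starts. The other 7 are Tnnt3, Tnni2, Tcap, Myoz1, Sln, Neb and Actn3. An E-box was in 16 of the 36 windows, 44.4%, against 13.0% of the 32851 windows of all genes. The MCAT element was in 9 of them, against 12.6% of all windows, the MEF2 site in 6, against 2.92%, and the CArG box in 4, against 1.47%. No matches to different motifs overlapped in these windows. A match describes letters only and is no evidence of binding.

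For the 7 measured Z-disc and scaffold genes the medians were 0.84 at P1 and 0.36 at P9. Actn3, the α-actinin of fast fibres that crosslinks actin at the Z-disc, was at 1.34 at P1, 2.53-fold, and 0.57 at P9, on 1 probe. Tcap, which caps titin, was at 0.93 and 0.48, and Des, the intermediate filament desmin, at 0.86 and 0.18. Both were high at P1, but the P9 value of Des was within the spread between probes. Ldb3, a PDZ and LIM protein of the Z-disc, had probes at 1.07, 0.98 and 0.48 at P1 and at 0.56, 0.53 and 0.00 (0.003 before rounding) at P9. Every Ldb3 probe was lower at P9 than at P1. Of the calsarcins, which bind α-actinin and calcineurin, the fast form had the higher mean ratio, by a gap that depended on the probes. Myoz1, of fast fibres, was at 0.66 ± 0.10 at P1 and 0.48 ± 0.02 at P9 (SD, 2 probes each). Myoz2, of slow fibres, was at −0.07 ± 0.39 and 0.12 ± 0.33 (SD, 2 probes each), with its probes on both sides of 0. On its higher probe alone, the gap of Myoz1 over Myoz2 was 0.45 at P1 and 0.13 at P9. Ttn, which encodes titin, the spring of the sarcomere, was at 0.20 ± 0.26 (SD, 6 probes) at P1 and 0.27 ± 0.44 (SD, 8 probes) at P9. Its P1 probes ran from −0.19 to 0.56 and its P9 probes from −0.44 to 0.95.

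Calcium handling genes had medians of 0.76 at P1 and 0.25 at P9, and all 6 had a lower ratio at P9. Ryr1, the calcium release channel, had probes at 1.82, 0.86 and 0.67 at P1 and at 1.21, 0.61 and 0.59 at P9. Its means were 1.12 ± 0.62 and 0.80 ± 0.35 (SD, 3 probes each), which is 2.17-fold at P1. Cacna1s, the voltage sensor that opens it, had P1 probes at 0.92 and 0.25 and P9 probes at 0.41 and −0.03. The highest probe of each gene thus stood well apart from its other values. Atp2a1, the calcium pump of fast fibres, was at 0.81 ± 0.05 at P1 and 0.31 ± 0.23 at P9 (SD, 2 probes each). Casq1, the calcium buffer of the reticulum, went from 0.82 to −0.10, and Pvalb, the cytosolic buffer parvalbumin, from 0.71 (0.705 before rounding) to 0.01, on 1 probe each. Sln, which encodes sarcolipin, an inhibitor of the pump, was at 0.46 (0.455 before rounding) at P1 and 0.41 at P9. Both buffers had P9 values near 0, whereas Sln was nearly the same at both ages.

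Fuel and oxygen genes had medians of 0.76 at P1 and 0.19 at P9 over 4 genes with 1 probe each. Pygm, the glycogen phosphorylase of muscle, was at 1.01, 2.02-fold, and at 0.53 at P9. Mb, the oxygen carrier myoglobin, was at 0.92 and 0.15. Ckm, muscle creatine kinase, was at 0.60 and 0.24, and Eno3, the muscle enolase, at 0.42 and 0.13. All 4 were above 0 at both ages, and at P9 only Pygm was above the spread between probes.

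Myog, which encodes the differentiation factor myogenin, was at 1.09 at P1, 2.13-fold, and at 1.03 at P9, 2.05-fold, on 1 probe. It was the only regulator among the 37 genes. With Myh4, Sln, Myh8, Tnnc2 and Ttn, it was among the members whose mean ratio moved by less than 0.1 between the ages. For Myh8 and Ttn single probes moved in opposite directions. Their differences of P9 minus P1 ran from −0.54 to 0.92 for Myh8 and from −0.68 to 0.39 for Ttn.

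By fibre type, the 14 fast isoforms had a median of 0.79 at P1 and 0.30 at P9. The 6 slow isoforms had medians of 0.56 and 0.21, and the 2 developmental myosins of 0.40 and 0.09. The SD between genes was 0.42 among fast and 0.45 among slow isoforms at P1, so the fast and slow medians differed by less than the spread between genes, and the ranges overlapped. The fast range was from −0.15 to 1.55 and the slow range from −0.07 to 1.32. Past 2-fold higher at P1 were 2 of the 14 fast and 1 of the 6 slow isoforms, against 1.72% of all genes. P9 minus P1 had a median of −0.43 for fast and −0.45 for slow isoforms, with 13 of 14 and 5 of 6 lower at P9. Of 5 fast and slow pairs of the same protein, the largest P1 gaps were 0.42 for Mybpc2 over Mybpc1 and 0.73 for Myoz1 over Myoz2. The spread between probes is that of single probes and does not measure the error of a gap between genes. Over probes with a RefSeq mRNA accession, a choice made after the values were seen, the Myoz1 gap was 0.45 at P1, and at P9 it was 0.13 against 0.37 over all probes. For the troponin pairs the P1 difference ran from −0.21 to 0.01.

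**Figure D2:**
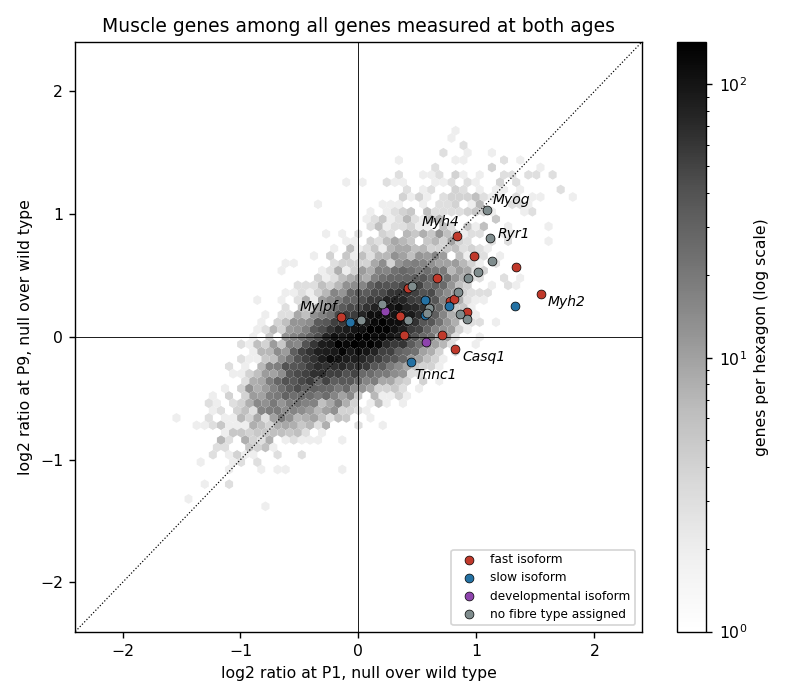
Log2 ratio at P1 against P9 for all 16647 genes measured at both ages, as hexagons shaded by the number of genes on a log scale, with the 36 muscle genes as points coloured by fibre type and equal ratios on the dotted line; 1 gene lies outside the axes. The muscle genes lie mostly below the line and to the right of the bulk of the genes, and fast and slow isoforms overlap.

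Across the 36 genes the ratios at P1 and P9 correlated with Pearson's r = 0.48, against 0.67 over all genes. Genes are not independent replicates, and the arrays share a slide by their titles, a dye orientation and probes. Over the 38 probes of 14 members with at least 2 probes measured at both ages, the deviation of a probe from its gene's mean at P1 correlated with that at P9 with r = 0.64. Of the 60 member probes with a value at both ages, 49 were lower at P9.

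Probes of 1 gene often differed, and they were also read by the kind of accession that the platform annotation gives. Of the members' probes, 57 with a P1 value carried a RefSeq mRNA accession and had a median of 0.69, and 6 carried a cDNA clone accession and had a median of −0.21. At P9 the medians were 0.30 over 61 and −0.11 over 5 probes. The clone probes belong to Neb, Myoz2, Myh8, Ttn and Ryr1, so these medians also compare different genes. At P1 the clone probe lay below every mRNA probe in Neb, Myoz2 and Ttn, and above them in Ryr1. Clone probes of Myh8 were at −0.23 and 0.27 at P1, and at 0.69 and −0.15 at P9. Its mRNA probes were at 0.97 and −0.09 at P1, and at 0.43 and −0.11 at P9. Over mRNA probes alone, a choice made after the values were seen, Neb was at 0.35 at P1 and 0.34 at P9, and Myoz2 at 0.21 and 0.35. Myh8 was then at 0.44 and 0.16, and Ttn at 0.28 and 0.27. For Ryr1 the clone probe was the high one, and over mRNA probes it was at 0.76 at P1, no longer past 2-fold, and at 0.60 at P9. With these probes 34 of 36 genes were lower at P9. Neb and Ttn count among them by differences of −0.0017 and −0.0108. Their means used 3 and 5 probes at P1 and 5 and 8 at P9. The 3 Neb mRNA probes with both values were each higher at P9. They went from 0.59 to 0.61, 0.01 to 0.55 and 0.43 to 0.60.

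**Figure D3:**
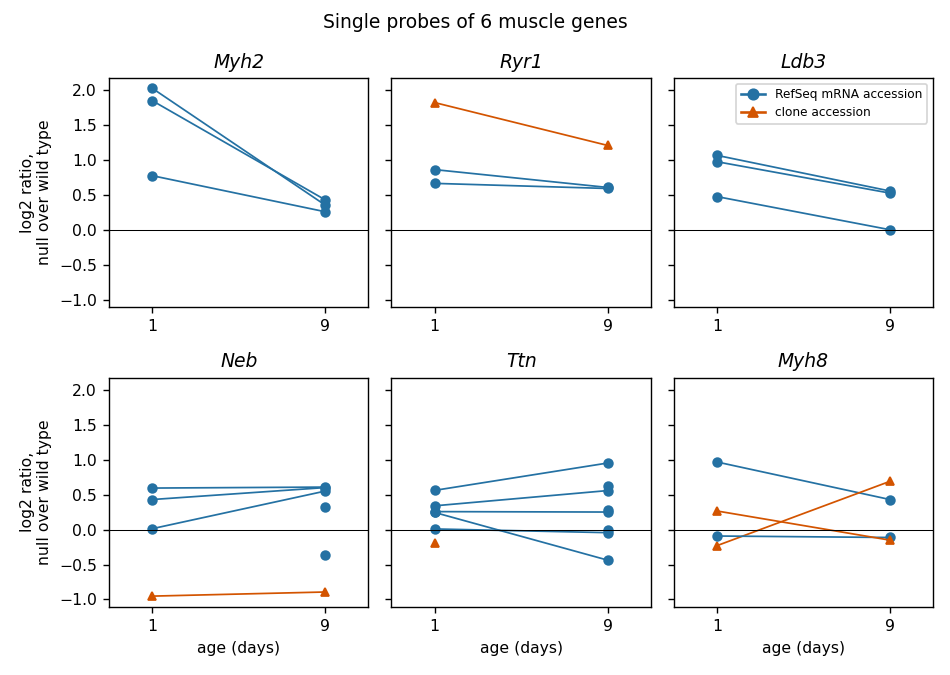
Log2 ratio of single probes at 1 and 9 days of age for 6 muscle genes, with blue circles for probes of a RefSeq mRNA accession and orange triangles for probes of a cDNA clone accession, and a line joining the values of 1 probe. The clone probe of Neb lies at −0.95 and −0.89 while most of its mRNA probes lie above 0, and the clone probe of Ryr1 lies above its mRNA probes.

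Further muscle genes were listed by function. Of 102 with a probe, 82 of 101 were above 0 at P1 with a median of 0.41, and 9 were past 2-fold higher, against 55.8% and 1.72% of all genes. At P9, 64 of 100 were above 0 with a median of 0.10, against 53.4% of all genes. The 2 past 2-fold higher at P9 are a share near the 2.24% of all genes, and 0 were past 2-fold lower at either age. P9 was lower than P1 for 74 of 99, against 51.9% of all genes.

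The 32 other sarcomere genes had a P1 median of 0.47, and 5 of them were past 2-fold higher, against 1.72% of all genes. Smyd1, a methyltransferase of striated muscle, was at 1.30 and at P9 1.31, past 2-fold at both ages. Myl2, the slow regulatory light chain, was at 1.29 and −0.25. Klhl40, mutated in human nemaline myopathy, was at 1.28 and 0.30, Xirp1, an actin-binding repeat protein, at 1.24 and 0.41, and Trim54, a RING finger protein of the sarcomere, at 1.01 (1.015 before rounding) and 0.33. At P9 this list had a median of 0.12, and Smyd1 was its only gene past 2-fold, where 2.24% of all genes were called higher.

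For genes of excitation coupling the median was 0.43 at P1 over 15 genes, and at P9 it was 0.13 over 16 genes. Cacnb1, a subunit of the channel that Cacna1s forms, was at 1.37 and 0.96, and Jsrp1, a reticulum protein of the junction with that channel, at 1.07 and 0.30. Both were past 2-fold at P1 only. Other fuel genes had medians of 0.38 and 0.13 over 19 genes. Art1, an ADP-ribosyltransferase, was past 2-fold at P1, at 1.04. Pgam2, the muscle phosphoglycerate mutase, was at 0.84 and 0.29.

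Neuromuscular junction genes were above 0 in 11 of 11 at P1, with a median of 0.59, and had a median of 0.19 at P9 over 10. Colq, the collagen tail of acetylcholinesterase, was at 0.65 at P1 and past 2-fold at P9, at 1.34. Chrne, the adult subunit of the acetylcholine receptor, was at 0.89 ± 0.77 and 0.56 ± 0.51 (SD, 2 probes each). Myogenic and satellite cell genes had medians of 0.32 over 13 and 0.01 over 12 genes, with 8 and 6 above 0. They ran from −0.67 for Myf5, a determination factor, to 1.20 at P1. Mymk, which drives fusion of myoblasts, was past 2-fold at P1, at 1.20, and at 0.68 at P9. Myod1, another determination factor, was at 0.76 (0.755 before rounding) and 0.85, and Cdh15, a cadherin of satellite cells, at 0.86 and −0.21. Costamere genes, which link sarcomeres to the membrane, had medians of 0.21 and −0.08 over 11 genes. Sgca, a sarcoglycan, was at 0.91 and 0.18, and Dmd, which encodes dystrophin, was at −0.69 and −0.14.

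Markers of cell types beside skeletal muscle were read on the same arrays. Ratios give no level, so which markers are absent from the tissue, and whether its label fits, was not read from them. Smooth muscle markers had medians of 0.38 at P1 and 0.21 at P9 over 10 genes, with 9 and 7 above 0, from −0.05 to 0.74 at P1. Myh11, the smooth muscle myosin, was at 0.70 and 0.81. Cardiac markers, several of which developing skeletal muscle also expresses, had medians of 0.34 and 0.20 over 10 genes, from −0.01 to 0.66 at P1 and from 0.06 to 1.06 at P9. Nppb, a natriuretic peptide, was the gene of that list past 2-fold, at P9, at 1.06 ± 0.62 (SD, 2 probes). White adipocyte markers had medians of 0.50 and 0.03 over 9 genes, from −0.48 to 0.85 at P1, and 8 of 9 were lower at P9. The ratio was also lower at P9 for 8 of 10 cardiac, 5 of 6 Schwann cell and 9 of 9 endothelial markers, against 51.9% of all genes. It was lower for 5 of 10 smooth muscle, 5 of 8 fibroblast, 3 of 6 brown adipocyte and 1 of 5 keratinocyte markers.

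Brown adipocyte markers had medians of 0.32 over 6 and 0.11 over 7 genes, with 5 and 4 above 0. Ucp1, the uncoupling protein, was at −0.40 and 1.57 on 1 probe, the lowest of that list at P1 and the highest at P9. Schwann cell markers had medians of 0.39 and 0.14 over 6 genes, from −0.11 to 0.95 at P1. Endothelial markers had medians of 0.09 and −0.07 over 9 genes, from −0.12 to 0.77 at P1. Fibroblast markers were on the other side of 0, with medians of −0.41 and −0.15 over 8 genes, but 3 of 8 lay above 0 at P1 and the range was from −1.56 to 0.32. Dcn, which encodes decorin, was at −1.56 and Col1a2, a chain of type I collagen, at −1.12 at P1. The keratinocyte median was 0.05 over 8 genes at P1 and 0.12 over 6 at P9, with 4 of 8 above 0 at P1. They ran at P1 from −1.03 for Dsg1a, a desmosomal cadherin, to 0.66 for Krt5, a basal keratin. The part of these cell types in the muscle values was not tested.

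**Figure D4:**
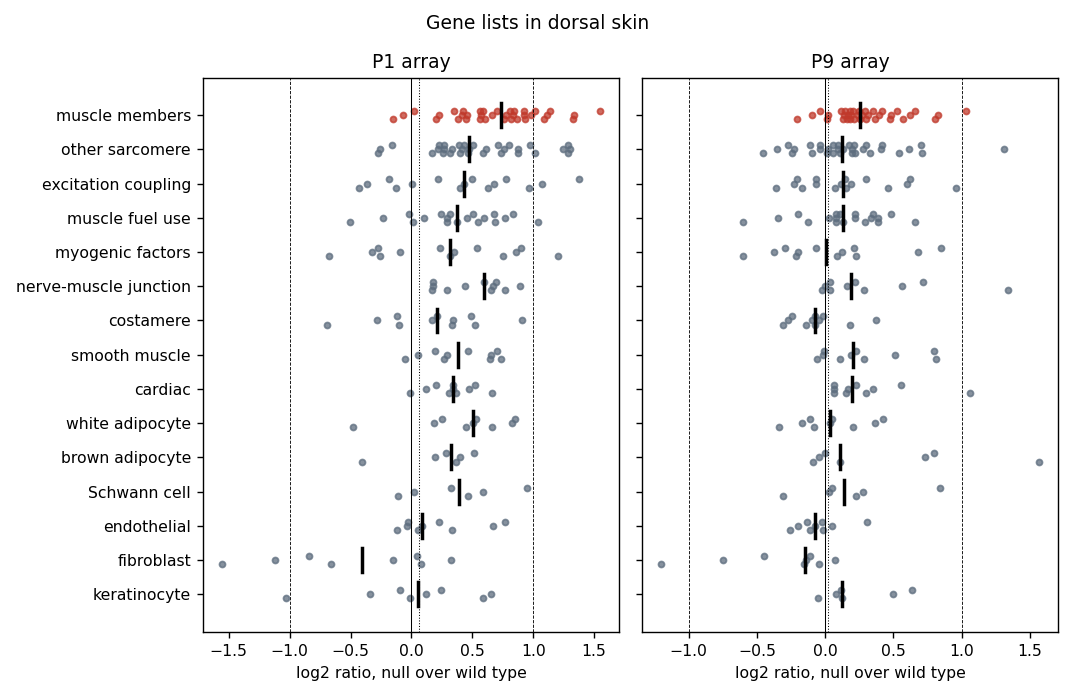
Log2 ratio of null over wild type of each gene in 15 lists at P1 and P9, with a bar at each list's median, a solid line at 0, a dotted line at the median of all genes and dashed lines at 2-fold. Muscle members have the highest median of the lists shown at both ages, 0.73 at P1 and 0.25 at P9, and fibroblast markers the lowest. At P9 smooth muscle and cardiac markers follow closely, at 0.21 and 0.20. Members and lists were chosen with earlier results of these data known, so this order is a description only.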

How the data were processed

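Per the labels, 2 arrays of the Agilent Whole Mouse Genome design, 1 per age, each received amplified dorsal skin RNA of both genotypes, Cy5 for null and Cy3 for wild type. The authors deposited 1 table of log2 ratios with 39212 rows. How background, dye bias and blank cells were treated is not given in the labels. The log base was inferred. The largest size, 4.90, is 29.8-fold in base 2. No signal was used, so dim spots could not be told apart. Blank cells were 6 of the 69 member probes at P1 (8.70%) and 3 at P9 (4.35%), against 9.45% and 4.22% of all named probes.

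Probes were named from the platform annotation, and symbols were updated through Entrez identifiers against RefSeq on GRCm38.p6. Of the rows, 31337 named 1 gene and 31210 of these matched, 40 named several and were left out, and 7835 had no name here. Probes of a gene were averaged. All members were described. Of each other list, genes past 2-fold and the 4 of largest size were eligible to be named, and the text gives a selection. Myf5 was named in addition, as the lowest gene of its list at P1. Members and lists were chosen with earlier results of these data known. There were 0 columns of unmapped samples. The scripts ran under Python 3.11.15 with pandas 2.3.3 and numpy 2.4.6, figures were drawn with matplotlib 3.10.9, and the calculations were tested on simulated data. Alternatives changed the threshold, the sign rule, the probe summary, the probes and genes used, and the centring and scaling.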

Additional observations from a re-analysis of the deposited data

Results flagged for a closer look

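Muscle genes with opposite signs at the ages were flagged, and the difference between the ages was not tested for any of them. Below 0 at P1 and above 0 at P9 were Mylpf, at −0.15 and 0.16, and Myoz2, at −0.070 and 0.12. Above 0 at P1 and below 0 at P9 were Casq1, at 0.82 and −0.10, Tnnc1, at 0.45 and −0.20, and Myh3, at 0.57 and −0.038. The costamere median went from 0.21 to −0.076 and the endothelial median from 0.087 to −0.074. Among listed genes past 2-fold at 1 age, Myl2 went from 1.29 to −0.25, Nppb from −0.008 to 1.06 and Ucp1 from −0.40 to 1.57. All but Casq1, Tnnc1, Myh3, Myl2, Nppb and Ucp1 lay within 0.36, the SD between probes, at both ages.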

How the results depend on the processing

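Of 9 alternatives, 1 of them chosen after seeing the data, 7 bore on the medians and the other two on the counts alone. The 23 medians kept their sign in the 155 comparisons that could be made, and 138 moved by at most 0.1. At a 1.5-fold threshold 21 of 36 members were called at P1, against 7 of 36 as reported. With the arrays centred and scaled 3 of 36 were called (Actn3, Myh2 and Myh7). Among the 16 members with at least 2 probes at P1, 3 were called (Myh2, Myh7 and Ryr1). At P9, 5 of 36 were called at 1.5-fold and 0 of the 15 with at least 2 probes, against 1 of 36. The share of all genes called at these settings was not calculated, so these counts cannot be judged against all genes. A lower threshold also admits more of all genes. Scaling gave P1 medians of 0.62 for all members, 0.67 for fast isoforms, 0.72 for genes of no fibre type, 0.59 for the thick filament, 0.71 for the Z-disc, 0.64 for calcium handling, 0.64 for fuel and 0.92 for Myog, whose P9 value was 1.22, and a difference between the ages of −0.24. With at least 2 probes the P1 medians were 0.62 for all members, 0.58 for genes of no fibre type and 0.43 for the Z-disc. Without myosin heavy chains the thick filament was at 0.47 at P1. Over mRNA probes the developmental myosins were at 0.50 at P1. With probe medians, genes of no fibre type were at 0.42 and the Z-disc at 0.48 at P9. No fuel gene and not Myog had 2 probes, and the developmental group holds only myosin heavy chains, so those comparisons gave no value. No paired analysis was possible because each age has 1 array. Spot signals were not used here, so what brightness limits could not be read.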
